A study of Homo sapiens with 4 samples.

Results

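CD44, CD24 and PROM1 are cell surface genes whose products are widely used to sort stem-like cells from colorectal tumors, and they were examined here together with 5 genes that are read beside them: EPCAM, ALCAM and CD9 at the cell surface, the receptor gene EPHB2 and the transcription factor gene SOX9. The 8 genes were taken by name out of 58735 genes in 1 RNA-seq table, with earlier results of these data known, and all 8 were in it. The table holds 4 libraries, 1 each of HCT116 and LOVO grown adherent and of the same lines grown as spheroids, both being established human colorectal cancer cell lines. The spheroids were grown with a drug at a labelled dose of 1 mg/ml, which the labels leave unnamed. The paper names it as oxaliplatin with a dose in μg rather than mg, and the adherent cells were grown without it. The methods of the study place spheroids in serum-free DMEM/F12 medium with B27, N2, bFGF and EGF in ultralow attachment dishes. The drug, the medium and the growth form therefore differ between the same libraries and cannot be told apart. The labels name no genetic change in any culture, and each line is a single cell line grown in culture, so nothing here stands for patients or for the spread between cultures.

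The value for each gene is its FPKM, the number of fragments scaled to the length of the gene and to the size of the library, which allows levels of different genes to be compared. Reads on genes numbered between 15483569 and 20429147 per library, and the reads behind each FPKM could be recovered as whole numbers. Comparisons were differences of log2(FPKM + 1), a scale on which differences of weakly expressed genes come out too small, over the 14429 genes whose FPKM averaged 1 or more across the 4 libraries. With 1 library per condition no value has a replicate error. Intervals given below are 95% exact intervals of the reads (Poisson for a level, Clopper-Pearson for a ratio) and cover counting error only. All 8 genes passed the filter on low values, although PROM1, EPHB2 and SOX9 passed it only through the HCT116 libraries.

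CD44 is the receptor for hyaluronan, a sugar polymer of the matrix, and is tied to the cytoskeleton by ezrin, radixin and moesin. CD24 is a short, heavily glycosylated protein held in the membrane by a lipid anchor, and PROM1 encodes prominin-1 (CD133), a cholesterol-binding protein of membrane protrusions. In the intestine, EPCAM covers the whole epithelium, EPHB2 and SOX9 are high in the proliferating crypt bottom, and both of the latter are known targets of WNT signaling.

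Before the 8 genes were read, the libraries were checked against markers of their labelled tissue. The libraries labelled LOVO lacked defining markers of colorectal epithelium. The FPKM of CDH1, which encodes E-cadherin, was 31.1 in both HCT116 libraries but 0.117 in the adherent library labelled LOVO and 0.00805 in the spheroid library labelled LOVO. CDX2, the intestinal homeobox factor, had an FPKM of 3.84 and 3.12 in adherent and spheroid HCT116 cells and was listed at 0 in both libraries labelled LOVO. KRT19 stood at 808 and 543 in the HCT116 libraries against 14.9 and 4.85, whereas KRT8 and KRT18 stayed above 80 FPKM in all 4 libraries. Of the 12 epithelial markers, 7 and 8 reached an FPKM of 1 in adherent and spheroid HCT116 cells, against 4 and 5 in the libraries labelled LOVO, and the summed FPKM of the list was 1756, 1290, 328 and 189 in the same order. Fibroblast markers differed the other way in sum, the 6 markers reaching 5.60, 16.1, 54.0 and 72.8. LUM was listed at 0 and 0.0198 in the HCT116 libraries against 31.4 and 50.4. COL1A1 went against this between the spheroid libraries, with a log2(FPKM + 1) difference of -1.22 (labelled LOVO minus HCT116). The 5 leukocyte markers summed to at most 1.95 in any library, with PTPRC never above 0.0107. The 4 endothelial markers summed to 0.306, 0.762, 1.13 and 7.84, the last mostly PECAM1 at 6.35. Because of this, the last pair of libraries is called "labelled LOVO" throughout, and the part of these markers in any result below was not tested. The comparison within HCT116 uses none of these libraries.

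**Figure D1:**
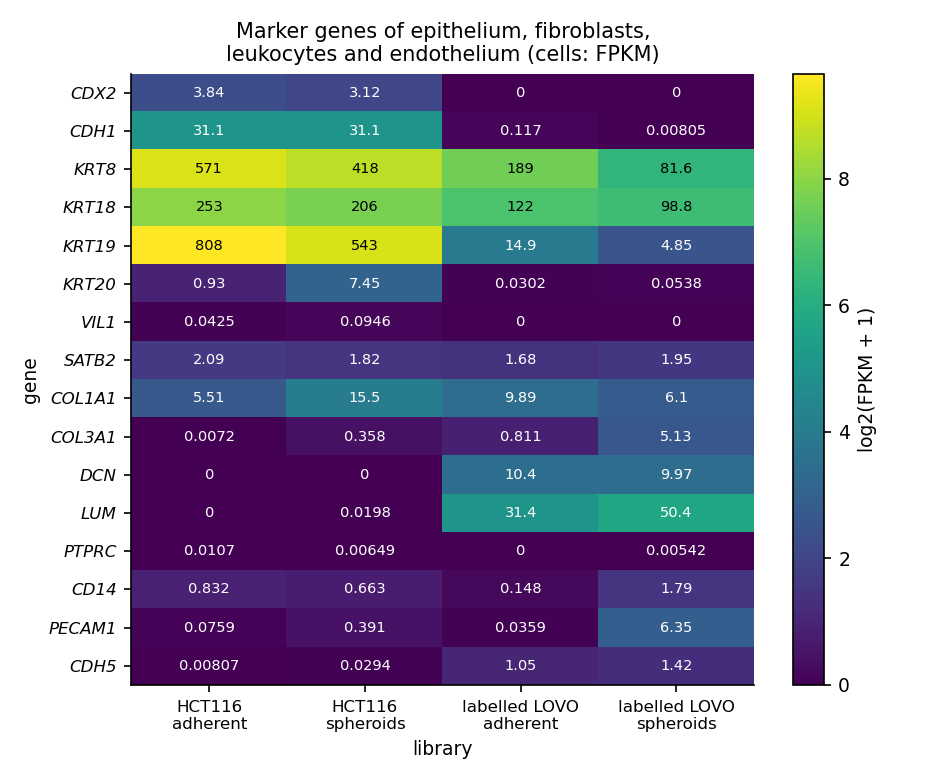
Level of 16 marker genes (rows) in the 4 libraries (columns), coloured by log2(FPKM + 1) with the FPKM written in each cell. CDH1 and CDX2 are at 31.1 and at least 3.12 in the HCT116 columns and at most 0.117 in the columns labelled LOVO, where LUM and DCN reach 50.4 and 10.4.

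The 8 genes are spread over 8 chromosomes of GRCh38. CD44 lies on the plus strand of chromosome 11 (35138870 to 35232402), with 39 annotated transcripts in GENCODE 29. CD24 lies on the minus strand of chromosome 6 (106969831 to 106975627), PROM1 on the minus strand of chromosome 4 (15963076 to 16084378), EPCAM on the plus strand of chromosome 2 (47345158 to 47387601) and ALCAM on the plus strand of chromosome 3 (105366909 to 105576900). CD9 lies on the plus strand of chromosome 12 (6199715 to 6238271), EPHB2 on the plus strand of chromosome 1 (22710839 to 22921500) and SOX9 on the plus strand of chromosome 17 (72121020 to 72126420). Exons of other genes cover 84 of the 10004 exonic bases of CD44 (CD44-AS1, on the opposite strand), 166 of the 7434 of PROM1 (FGFBP2, on the same strand) and 34 of the 12516 of EPHB2 (MIR4253), and none of those of the other 5. The values are per gene, so the CD44 variant isoforms, which differ in their inner exons, cannot be told apart.

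CD24 is the gene of the 8 whose reads are hardest to place, because processed copies of its short coding sequence lie elsewhere in the genome. The coding sequence, 240 bases in 2 exons on the minus strand (chr6:106971664-106974646, GRCh38), was set against the annotated pseudogenes. CD24P4 matched it at 99.2% of 240 aligned bases with 2 mismatches and an identical stretch of 110 bases. CD24P2 matched at 93.5% with an identical stretch of 52 bases, and CD24P1 at 84.9% with one of 19. In the sequence below, printed 5′ to 3′ without the stop codon, capitals mark the 2 bases that differ from CD24P4.
CD24 coding sequence: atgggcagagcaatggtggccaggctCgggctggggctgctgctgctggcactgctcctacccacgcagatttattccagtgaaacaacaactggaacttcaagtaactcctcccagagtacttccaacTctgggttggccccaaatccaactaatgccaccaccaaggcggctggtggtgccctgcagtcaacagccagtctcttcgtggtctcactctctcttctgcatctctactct
How reads that fit both places were counted is not given in the sources used here. Summing CD24 with its pseudogenes moved none of its 4 differences by more than its counting error, the largest being from 1.53 to 1.47 in HCT116. Transcripts of 100 other genes, CD24P4 among them, shared a stretch of at least 50 bases with CD24, and those of 26 did so with EPHB2. The sum covers the CD24 pseudogenes only.

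Promoter windows of 3 genes are shown as sequence context. No promoter activity was measured, and no difference in level is read from them. RefSeq (GRCh38.p14) windows of 250 bases before the transcription start were at hand for 6 of the 8 genes, 15 windows in all. Those below overlap no annotated exon. Capitals mark CAGGTG, a sequence (an E-box) that repressors of the ZEB and SNAI families bind, on either strand.
CD24 (chr6:106975628-106975877, minus strand): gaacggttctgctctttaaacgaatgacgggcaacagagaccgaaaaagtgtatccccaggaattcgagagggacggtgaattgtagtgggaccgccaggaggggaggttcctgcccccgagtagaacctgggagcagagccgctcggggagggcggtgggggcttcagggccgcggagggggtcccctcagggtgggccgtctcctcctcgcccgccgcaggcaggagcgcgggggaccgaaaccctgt
ALCAM (chr3:105366659-105366908, plus strand): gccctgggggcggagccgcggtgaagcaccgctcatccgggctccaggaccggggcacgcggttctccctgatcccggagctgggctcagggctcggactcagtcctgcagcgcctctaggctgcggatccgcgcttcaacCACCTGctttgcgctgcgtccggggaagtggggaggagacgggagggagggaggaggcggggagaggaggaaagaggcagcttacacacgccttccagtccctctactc
EPHB2 (chr1:22710588-22710837, plus strand): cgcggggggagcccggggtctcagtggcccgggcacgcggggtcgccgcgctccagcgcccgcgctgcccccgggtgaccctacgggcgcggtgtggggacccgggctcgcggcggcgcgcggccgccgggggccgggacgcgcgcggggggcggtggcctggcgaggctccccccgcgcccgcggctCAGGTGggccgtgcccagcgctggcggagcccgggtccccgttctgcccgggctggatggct
CAGGTG or its reverse complement CACCTG was present once in the ALCAM and once in the EPHB2 window, and in none of this CD24 window. A window at an inner CD24 start held it once and one at an inner PROM1 start held it 2 times, both also free of exons and not printed. Over all 15 windows it was found in 8, against 17.5% of all 35116 windows of the same length. The 2 EPHB2 windows among the 8 are the same stretch shifted by 1 base. The 8 windows came from 5 of the 6 genes, but the share over all windows is per window and not per gene. CD24 had 3 windows, and PROM1 and CD9 had 4 each. CTTTGA or its reverse complement TCAAAG, the core of the site of the TCF/LEF factors of WNT signaling, was found in 1 of the 15 windows, an inner PROM1 start, against 11.2% of all windows. The EPHB2 window had a GC content of 84.8% and 42 CpG dinucleotides, against 65.6% and 20 for CD24, 68.8% and 20 for ALCAM, and medians of 58.0% and 11 over all windows. A match describes letters in the window, and binding was not measured.

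In the HCT116 libraries all 8 genes were expressed, and in the libraries labelled LOVO 4 of them were at or near the bottom of the range. In adherent HCT116 cells the order of FPKM was EPCAM, CD9, CD44, SOX9, ALCAM, CD24, EPHB2 and PROM1, from 85.6 to 4.84. In HCT116 spheroids it was CD9, EPCAM, SOX9, CD44, CD24, ALCAM, EPHB2 and PROM1, from 87.9 to 5.16. In the adherent library labelled LOVO, CD24 came first at 88.6, followed by CD9, ALCAM and CD44, then EPCAM, EPHB2, SOX9 and PROM1, all 4 below 1. In the spheroid library labelled LOVO, CD9, CD44, CD24 and ALCAM came first, and EPCAM, EPHB2, SOX9 and PROM1 followed at 1.50 or below. The counting intervals of neighbours in these orders overlapped once, for SOX9 and PROM1 in the adherent library labelled LOVO, which had 4 reads each. Summed over the 8 genes, the FPKM was 282 and 364 in adherent and spheroid HCT116 cells and 155 and 113 in those labelled LOVO. In a bulk culture, fewer cells that carry a transcript and less of it per cell cannot be told apart, which holds for every level given here.

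**Figure D2:**
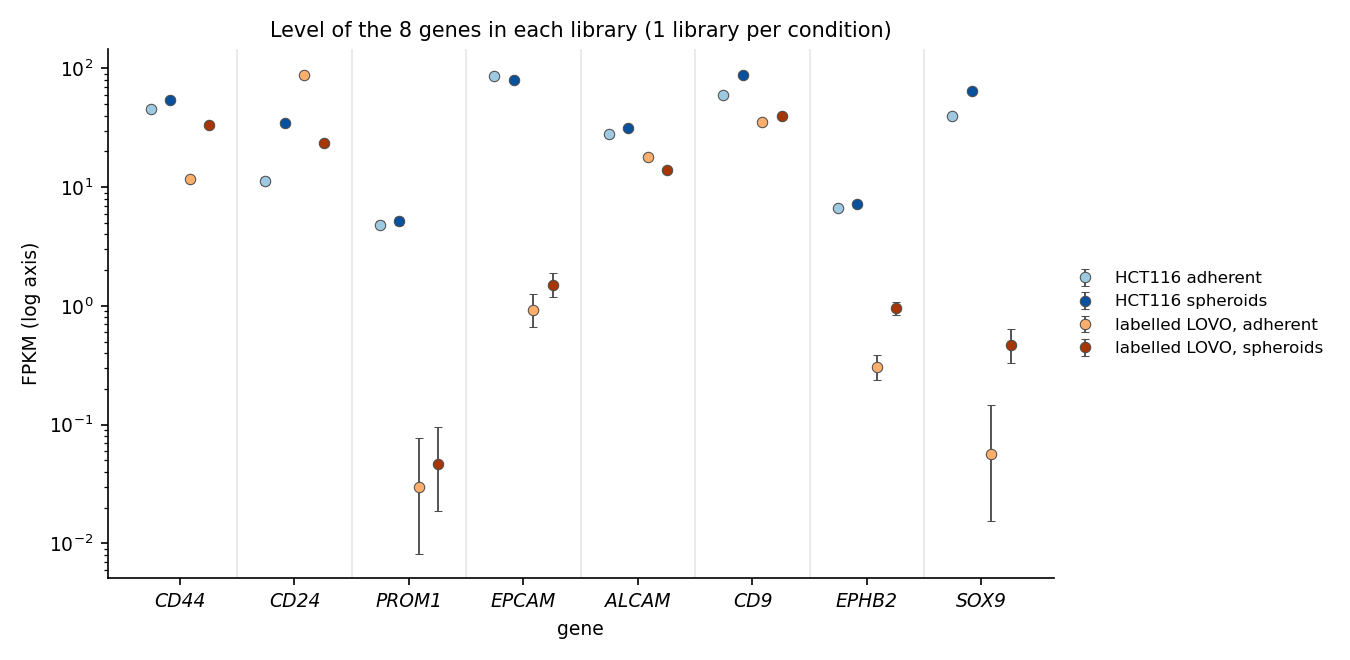
FPKM (log axis) of the 8 genes in the 4 libraries, 1 point per library, with bars for the 95% exact Poisson interval of the reads (counting error only, often smaller than the point). PROM1, EPCAM, EPHB2 and SOX9 lie at 4.84 or above in HCT116 and at 1.50 or below in the libraries labelled LOVO, and CD24 is highest in the adherent library labelled LOVO at 88.6.

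CD44 was higher in the spheroid library of both lines, slightly in HCT116 and clearly in the libraries labelled LOVO. Its FPKM was 45.8 in the adherent and 54.0 in the spheroid HCT116 library (9347 and 9071 reads), a ratio of 1.18 (counting interval 1.14 to 1.21). It was 11.6 in the adherent and 33.4 in the spheroid library labelled LOVO, from 2088 and 6718 reads, a ratio of 2.87 (2.73 to 3.01). On the log2(FPKM + 1) scale the differences were 0.23 in HCT116, at percentile 75.5 of the genes compared, and 1.44 in the libraries labelled LOVO, at percentile 95.8. The lowest of the 4 levels was thus in adherent cells labelled LOVO, and the level in spheroids labelled LOVO remained below both HCT116 levels.

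The genes that make, cut and bind the CD44 ligand hyaluronan were counted from a list of 18, which also holds sheddases, cytoskeletal linkers and splicing regulators of CD44. In HCT116 spheroids 6 of the 15 that passed the filter were higher and 9 lower, with a median log2 difference of -0.38 against -0.03 over all genes, of which 45.8% were higher. In spheroids labelled LOVO the split was 9 to 6, with a median of 0.16 against -0.06 over all genes, of which 45.5% were higher. These shares and medians of all genes stand beside every list described below. CEMIP, a hyaluronan-binding protein required for hyaluronan breakdown, had an FPKM of 2.23 and 4.62 in adherent and spheroid HCT116 cells but 0.344 and 184 in those labelled LOVO, a log2 difference of 7.10. HMMR, the other classical hyaluronan receptor and a gene of the mitotic spindle, was at 12.9 and 1.86 in HCT116, a log2 difference of -2.28, and at 15.1 and 9.12 in the libraries labelled LOVO. At the other ends of the list were HYAL1, a hyaluronidase, with 0.82 in HCT116, and RDX, which encodes radixin, with -0.94 in the libraries labelled LOVO. HAS3, a hyaluronan synthase, was at 10.7 and 7.25 in HCT116 and at 0.622 and 0.808 in the libraries labelled LOVO. ESRP1, a splicing regulator that keeps variant exons in CD44, stood at 41.3 and 21.7 against 0.0686 and 0.0612, whereas its paralog ESRP2 was at 10.9 and 6.99 against 15.0 and 10.3. These last values fall outside the naming rule and were picked after they were seen.

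Of the neighbours of CD44 on chromosome 11, a pair was expressed. Upstream, PDHX, a subunit of the pyruvate dehydrogenase complex, had log2 differences of 0.03 and 0.65 in the lines (HCT116 first), and APIP, an enzyme of methionine salvage, had -0.32 and -0.01. Downstream, SLC1A2 and PAMR1 were below an FPKM of 0.2 in all libraries. Over the 4 libraries, the genes whose centred log2(FPKM + 1) lay nearest to that of CD44 were TMEM171 (Euclidean distance 0.0865), STARD10 (0.112) and PANX1 (0.152), out of 14428. STARD10 had an FPKM of 13.1, 17.2, 3.20 and 9.91 in the order used above. With 4 points many genes can lie this close, and nothing more is read from it.

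On the log2(FPKM + 1) scale, CD24 had the largest differences of the 8 genes between spheroids and adherent cells, in opposite directions in the 2 lines. In HCT116 the FPKM was 11.3 in adherent and 34.4 in spheroid cells (713 and 1790 reads), a ratio of 3.05 (counting interval 2.79 to 3.33). In the libraries labelled LOVO it was 88.6 in adherent and 23.4 in spheroid cells (4920 and 1459 reads), a ratio of 0.264 (0.249 to 0.280). The log2(FPKM + 1) differences were 1.53, at percentile 99.4 of the genes compared, and -1.88, at percentile 1.13. The 2 spheroid libraries therefore lay between the 2 adherent libraries, closer to each other than these were. Between the adherent libraries the FPKM was 7.84 times higher (7.25 to 8.50) in the one labelled LOVO, whereas between the spheroid libraries it was 0.681 times as high (0.635 to 0.730).

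The ratio of CD44 to CD24, which is often used as a sorting criterion at the protein level, followed from these values. It was 4.06 and 1.57 in adherent and spheroid HCT116 cells, and 0.131 and 1.43 in the libraries labelled LOVO. It was thus lower in spheroids than in adherent cells in HCT116 and higher in the libraries labelled LOVO. The level of mRNA averaged over a culture does not say how many cells carry either protein.

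CD24 is also a surface protein of B cells and granulocytes. Of the leukocyte markers, LYZ and PTPRC were at an FPKM of 0.270 or below in the 4 libraries, and CD14, a marker of monocytes, was at 0.832 and 0.663 in HCT116 and at 0.148 and 1.79 in those labelled LOVO. SIGLEC10, a receptor for CD24 on immune cells, was listed at 0.187, 0, 0 and 0.0271 in adherent and spheroid HCT116 cells and in those labelled LOVO. The 4 nearest protein-coding genes on chromosome 6 (QRSL1, RTN4IP1, C6orf203 and BEND3) had log2 differences between -0.15 and 0.00 in HCT116 and between -0.70 and -0.02 in the libraries labelled LOVO, all smaller in size than those of CD24. By pattern over the 4 libraries, the nearest of 14428 genes were MIR1250 (distance 0.331) and MIR4512 (0.564), whose values rest on very short annotated genes, and CALD1 (0.618), which encodes the actin-binding caldesmon and had an FPKM of 5.95, 12.3, 37.6 and 14.7.

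PROM1 did not differ detectably between spheroids and adherent cells in either line. Its FPKM was 4.84 in the adherent and 5.16 in the spheroid HCT116 library (733 and 644 reads). In the libraries labelled LOVO it was 0.0300 and 0.0468, from 4 and 7 reads, which is at the limit of what this depth can measure. The log2 ratio was 0.09 in HCT116 with a counting interval from -0.06 to 0.25, and 0.64 in the libraries labelled LOVO with one from -1.33 to 2.86. Against HCT116, the ratio in the libraries labelled LOVO was 0.00620 in adherent cells (0.00169 to 0.0159) and 0.00908 in spheroids (0.00363 to 0.0188). PROM2, which encodes the related prominin-2, had an FPKM of 1.34 and 4.65 in HCT116 and 0.708 and 1.49 in the libraries labelled LOVO, so its log2 differences were 1.28 and 0.54.

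The chromosome 4 neighbourhood of PROM1 holds a gene with a far larger difference. FGFBP1, a carrier protein of fibroblast growth factors that ends 24336 bases away, stood at 2.38 and 23.0 in HCT116 and at 16.0 and 335 in the libraries labelled LOVO, log2 differences of 2.83 and 4.31. Between them lies FGFBP2, which shares exonic bases with PROM1 and was at 0, 0.619, 0 and 0.0795. On the other side, TAPT1 had log2 differences of 0.11 and 0.00, and LDB2 was below an FPKM of 0.3 in all libraries. The genes nearest to PROM1 in pattern were RNASE1 (distance 0.0465), BMP7 (0.0713) and RPS6KA2 (0.0780). All 3 had an FPKM between 4.62 and 5.42 in HCT116 and of at most 0.0422 in the libraries labelled LOVO.

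EPCAM, an adhesion protein of epithelial cells, was among the highest of the 8 genes in HCT116 and among the low ones in the libraries labelled LOVO. Its FPKM was 85.6 in the adherent and 79.3 in the spheroid HCT116 library (4397 and 3356 reads), a ratio of 0.926 (counting interval 0.885 to 0.969). For the libraries labelled LOVO it was 0.930 and 1.50, from 42 and 76 reads, a ratio of 1.61 (1.09 to 2.41). The ratio of the adherent libraries, labelled LOVO to HCT116, was 0.0109 (0.00781 to 0.0147). EPCAM is itself one of the epithelial markers of the label check, so its level in the libraries labelled LOVO and that check are not independent.

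Genes that act with EPCAM showed the same contrast between lines in part. SPINT2, a protease inhibitor that protects EPCAM, was at 64.7 and 66.0 in HCT116 and at 0.161 and 0.755 in the libraries labelled LOVO. ST14, which encodes matriptase, the protease that cleaves EPCAM, was at 59.8 and 60.2 against 0.628 and 1.51. TSPAN8, a tetraspanin found with EPCAM, was the reverse, at 0.0390 and 0 against 5.98 and 10.7. CLDN7, a claudin of the same complex, was at 87.1 and 41.4 against 26.8 and 19.1, and its log2 differences of -1.06 and -0.47 were the lowest of the list in both lines. At the upper end in the libraries labelled LOVO stood the protease inhibitor SPINT1 with 1.91. Of the 7 genes of the list, CD44 among them, 4 were higher in spheroids of HCT116 and 3 lower, and 6 were higher in spheroids labelled LOVO and 1 lower. The medians were 0.01 and 0.62. SPINT2, ST14 and TSPAN8 were named after their values were seen. Beside EPCAM on chromosome 2, CALM2, a calmodulin gene, was at 55.0, 35.7, 68.4 and 39.8, so it did not share the low level of EPCAM in the libraries labelled LOVO. KCNK12 was below 0.2 in all libraries and AC073283.3 was listed at 0 in all of them.

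ALCAM (CD166), an adhesion protein of the immunoglobulin family, differed little with growth form and in opposite directions. Its FPKM was 27.9 in the adherent and 31.7 in the spheroid HCT116 library (4086 and 3828 reads), a ratio of 1.14 (counting interval 1.09 to 1.19). The libraries labelled LOVO gave 18.1 and 14.0, from 2331 and 2017 reads, a ratio of 0.771 (0.726 to 0.819). Between the lines its log2(FPKM + 1) differences were -0.60 for the adherent and -1.13 for the spheroid libraries. CD6, the lymphocyte receptor for ALCAM, was below 0.1 in all 4 libraries. Of the related adhesion genes, BCAM had the highest log2 difference in HCT116 (1.08, from 15.9 to 34.6) and L1CAM the lowest in the libraries labelled LOVO (-1.78, from 65.4 to 18.3). MCAM was at 11.2 and 17.9 in HCT116 and at 83.3 and 34.2 in the libraries labelled LOVO. All 3 genes of this list that passed the filter were higher in HCT116 spheroids and lower in spheroids labelled LOVO. On one side of ALCAM on chromosome 3, CBLB (78561 bases away) had log2 differences of 0.14 in HCT116 and 0.16 in the libraries labelled LOVO. The nearest protein-coding gene on the other side, ZPLD1 (2887068 bases), was at 0.349 or below in all libraries. Beyond ZPLD1, NFKBIZ (3505887 bases) had log2 differences of -0.85 in HCT116 and 1.16 in the libraries labelled LOVO.

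CD9, a tetraspanin that gathers other membrane proteins into patches, was higher in both spheroid libraries by modest factors. Its FPKM was 60.0 in the adherent and 87.9 in the spheroid HCT116 library (5094 and 6152 reads), a ratio of 1.47 (counting interval 1.41 to 1.52). Libraries labelled LOVO held 35.3 and 39.6, from 2637 and 3319 reads, a ratio of 1.12 (1.07 to 1.18). In a list of 16 other tetraspanins and the CD9 partners PTGFRN and IGSF8, 17 genes passed the filter. In HCT116, 11 of them were higher and 6 lower in spheroids, none past a log2 difference of 1, with a median of 0.18, from TSPAN4 at -0.54 to TSPAN1 at 0.97. Among the libraries labelled LOVO, 13 were higher and 4 lower, 3 of them above 2, where 1.81% of all genes were, with a median of 0.43. The highest was IGSF8, at 12.5 and 109 (3.02), then TSPAN1 at 0.872 and 13.4 (2.94) and TSPAN15 at 1.45 and 8.83, and the lowest was TSPAN6 (-0.57). In HCT116, IGSF8 was at 25.5 and 33.5. The 4 neighbours of CD9 on chromosome 12 included ANO2, a chloride channel gene, at 0.0471, 0.0190, 8.77 and 0, and TNFRSF1A, a tumor necrosis factor receptor gene, at 18.8, 12.3, 27.0 and 27.9. PLEKHG6 was at 7.90, 7.87, 0.105 and 0.187, and VWF stayed below 0.4.

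EPHB2, the receptor for B-type ephrins, was about level in HCT116 and low in the libraries labelled LOVO. Its FPKM was 6.69 in the adherent and 7.23 in the spheroid HCT116 library (1706 and 1520 reads), a ratio of 1.08 (counting interval 1.01 to 1.16). In cells labelled LOVO it was 0.307 and 0.957, from 69 and 241 reads, a ratio of 3.11 (2.37 to 4.13), so that the spheroid library was higher but still at 0.132 of the level in HCT116 spheroids (0.115 to 0.152). Among 13 other ephrin receptor genes, 7 passed the filter. In HCT116 5 were higher and 2 lower in spheroids, from EPHA2 at -0.39 to EPHB6 at 0.69. In spheroids labelled LOVO 6 were higher, EPHA2 most at 1.38 (31.7 to 84.2), and EPHA4 was listed at 0 in both. Only 2 of the 13 reached an FPKM of 1 in each library labelled LOVO, against 7 in each HCT116 library. Most of the 6 therefore rest on low values. EPHA1, EPHB3 and EPHB6 were all above 6 FPKM in HCT116 and below 0.6 in the libraries labelled LOVO, while EPHB4 was between 15.0 and 24.0 in all 4 libraries. EPHA5 was listed at 0 in all of them.

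Of the B-type ephrins, the ligands of EPHB2, EFNB3 was at 0.167 or below in all libraries. EFNB1 was at 17.1, 20.3, 2.10 and 4.81 in the 4 libraries and EFNB2 at 14.7, 11.9, 0.978 and 2.04, both lower in the libraries labelled LOVO. Over the 7 ephrin genes that passed the filter, the log2 differences in HCT116 ran from -0.28 (EFNB2) to 0.23 (EFNB1), and those in the libraries labelled LOVO from 0.05 (EFNA2) to 1.03 (EFNA5). All 7 were higher in spheroids labelled LOVO, 1 of them past 1, against 45.5% and 8.57% of all genes. EFNA1 had the opposite contrast between lines, at 7.92 and 8.72 in HCT116 and 38.0 and 58.3 in the libraries labelled LOVO. The 4 neighbours of EPHB2 on chromosome 1 (C1QB, C1QC, LACTBL1 and TEX46) were at 1.21 FPKM or below in every library, and the first pair was listed at 0 throughout.

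**Figure D3:**
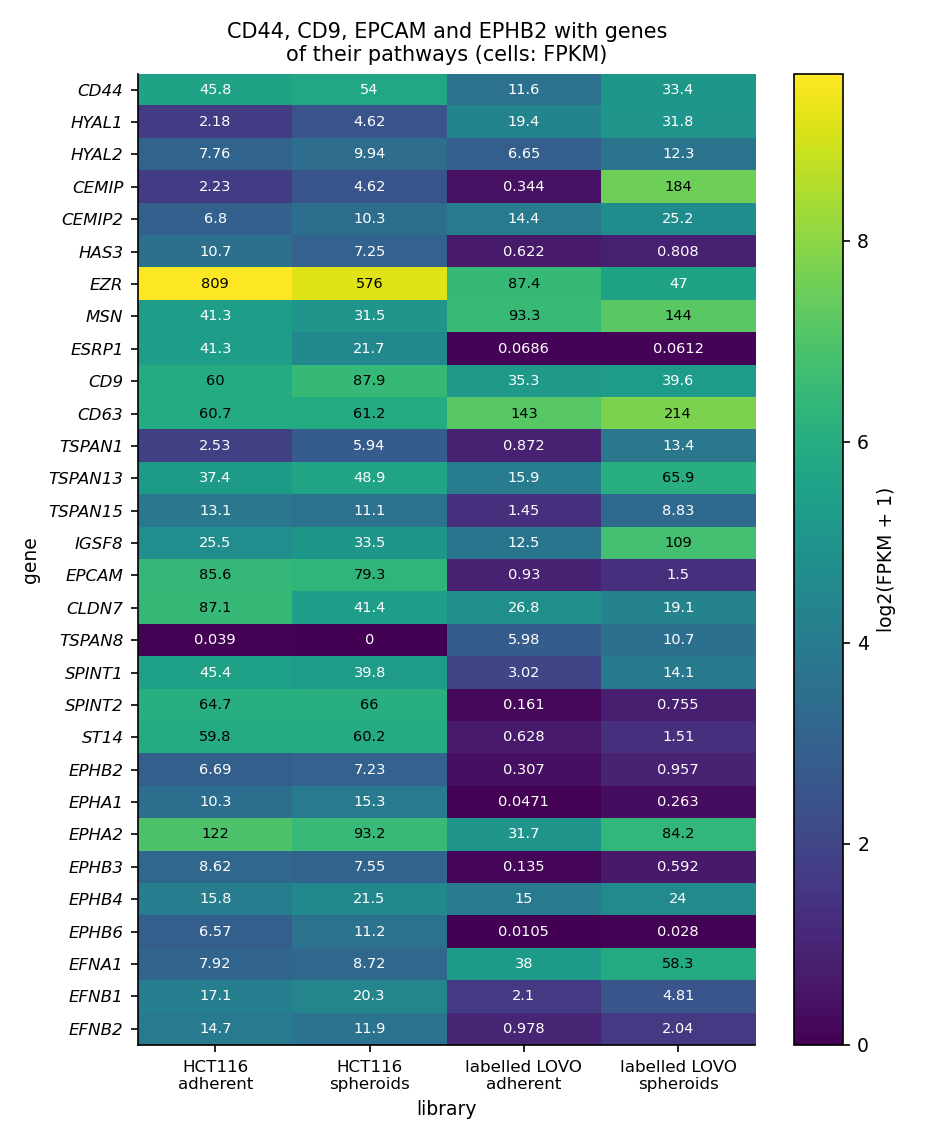
CD44, CD9, EPCAM and EPHB2 with genes of their pathways (rows) in the 4 libraries (columns), coloured by log2(FPKM + 1) with the FPKM in each cell. CEMIP at 184 and IGSF8 at 109 stand out in spheroids labelled LOVO, and SPINT2, ST14, EPHA1, EPHB3 and EPHB6 are low in both libraries labelled LOVO together with EPCAM and EPHB2.

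SOX9, a transcription factor of crypt progenitors, was higher in HCT116 spheroids and low in the libraries labelled LOVO, at the edge of detection in the adherent one. Its FPKM was 39.8 in the adherent and 64.4 in the spheroid HCT116 library (3195 and 4258 reads), a ratio of 1.62 (counting interval 1.54 to 1.69). For the libraries labelled LOVO it was 0.0567 and 0.467, from 4 and 37 reads. The ratio was 8.24 but its counting interval ran from 2.96 to 31.8, and on the log2(FPKM + 1) scale the difference was 0.47, below the 0.68 of HCT116. Between the adherent libraries the ratio was 0.00142 (0.000387 to 0.00365). SOX8, of the same SOXE subgroup, was at 6.08 and 7.13 in HCT116 and listed at 0 in both libraries labelled LOVO, and SOX10, the third gene of it, was at 0.337 or below everywhere.

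Of 18 other SOX genes, 6 passed the filter and 4 were listed at 0 in all libraries. SOX4, a progenitor factor of the SOXC subgroup, had the highest log2 difference in HCT116, 2.29, from 42.8 to 213, the largest of any gene of the lists there. In the libraries labelled LOVO it was at 11.7 and 9.67 (-0.25). SOX12 had the lowest difference in both lines (-0.39 and -0.49), and SOX13 the highest in the libraries labelled LOVO (0.74). The genes beside SOX9 on chromosome 17 lie far off, the nearest, SLC39A11, at 519529 bases, with an FPKM of 10.2, 9.74, 1.49 and 2.94. KCNJ2, KCNJ16 and SSTR2 were at 1.08 or below in all libraries.

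Counts of the 8 genes past a threshold were set beside those of all genes. In HCT116, 0 of the 8 were past a log2 difference of 2 in either direction, which few genes passed, 0.201% of all genes compared being above 2 and 0.506% below -2. At a threshold of 1, CD24 alone was past it, against 2.19% of all genes above 1 and 3.33% below -1. By sign 7 of 8 were higher in spheroids (45.8% of all genes were), with a median of 0.20 against -0.03. In the libraries labelled LOVO, 0 of the 8 were past 2, where 1.81% of all genes were above 2 and 0.943% below -2. PROM1, EPHB2 and SOX9, which were below an FPKM of 1 in both of these libraries, could not reach even 1 on this scale, so the count says nothing of them. CD44 was above 1 (8.57% of all genes) and CD24 below -1 (7.85%), and 6 of 8 were higher in spheroids (45.5% of all genes), with a median of 0.27 against -0.06. The counting interval of the ratio lay above 1 for 6 genes in HCT116 and 5 in the libraries labelled LOVO, below 1 for 1 and 2, and included 1 for PROM1 in both.

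**Figure D4:**
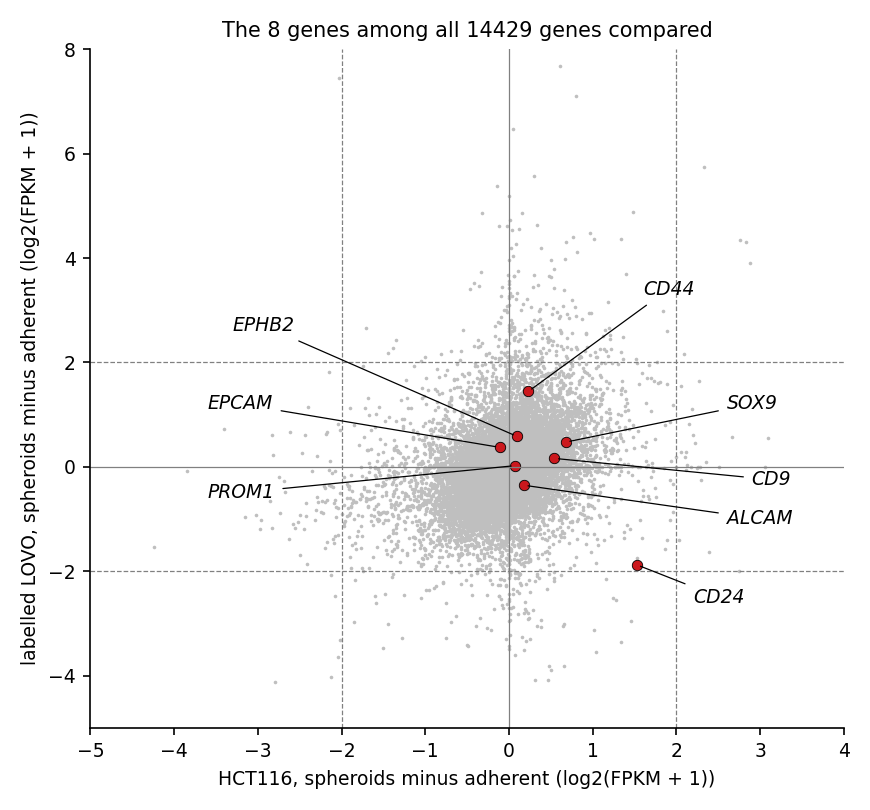
Difference of log2(FPKM + 1), spheroids minus adherent, in HCT116 (x axis) and in the libraries labelled LOVO (y axis), with a grey point for each of the 14429 genes compared, the 8 genes in red and dashed lines at 2 and -2. CD24 lies at 1.53 and -1.88, CD44 at 0.23 and 1.44, and the other 6 lie within 0.7 of 0 on both axes.

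Over both lines, the fit of limma with cell line as a covariate, in which the lines stand in for replicates and 1 residual degree of freedom remains, called 0 of the 8 genes for growth form. It called 0.0% of the 14429 genes at an adjusted p under 0.05, while 1545 had an unadjusted p under 0.05, and none of the 8 was among the latter. By limma, CD44 had a mean difference of 0.84 (SE 0.37, adjusted p = 0.472, higher in spheroids in 2 of 2 lines) and SOX9 one of 0.58 (adjusted p = 0.466). CD24 averaged to -0.17 with an SE of 0.82, the largest SE of the 8 genes (limma adjusted p = 0.942).

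**Figure D5:**
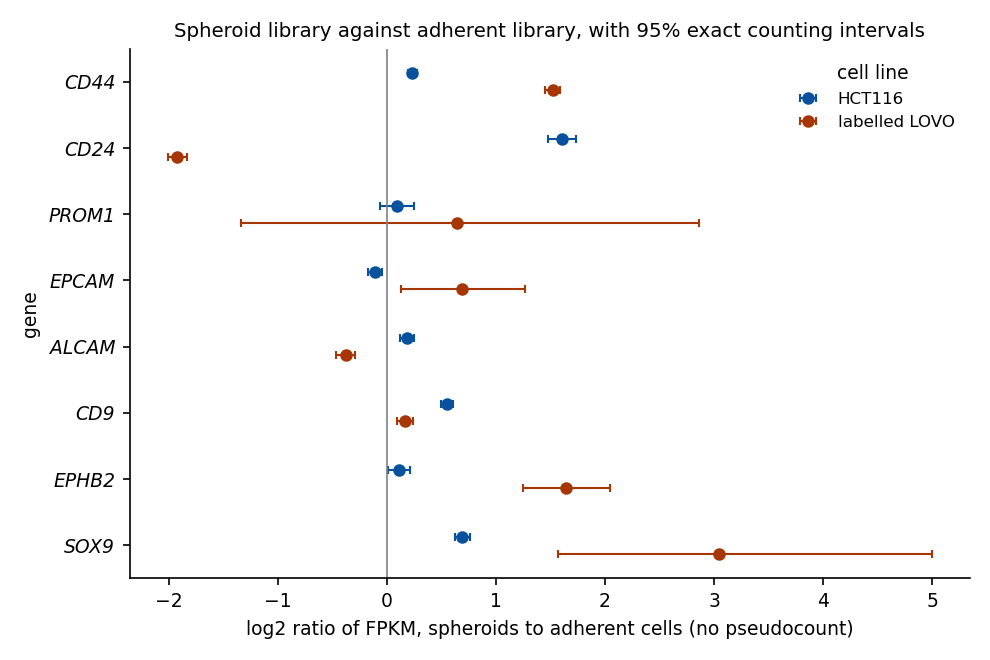
Log2 ratio of FPKM, spheroids to adherent cells without a pseudocount (x axis), for the 8 genes (y axis) in HCT116 and in the libraries labelled LOVO, with bars for the 95% exact (Clopper-Pearson) counting interval. The bars of CD24 lie on opposite sides of 0, those of PROM1 include 0 in both lines, and the bar of SOX9 in the libraries labelled LOVO is wide because it rests on 4 and 37 reads.

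Between the lines the differences were larger. In adherent cells, 4 of the 8 genes (PROM1, EPCAM, EPHB2 and SOX9) were below -2 in the library labelled LOVO relative to HCT116, where 5.59% of all genes were, and CD24 was above 2, where 5.26% were. The same 4 genes were below -2 between the spheroid libraries (4.71% of all genes) and none of the 8 was above 2 (5.68% of all genes). Of these 4, only EPCAM would have passed the filter on the libraries labelled LOVO alone, so a large difference was built into the presence of the other 3. The medians were -2.20 and -1.60 against 0.07 and 0.04 over all genes. The 2 comparisons between lines share their libraries with those between growth forms.

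In the same fit of limma, with the growth forms standing in for replicates of a line, 24.7% of all genes were called between the lines and 12.1% were called lower in the libraries labelled LOVO. It called 4 of the 8 genes, all lower: EPCAM at -5.25 (SE 0.26) and SOX9 at -5.38, each with an adjusted p of 0.00369 by limma, PROM1 at -2.53 (limma adjusted p = 0.00893) and EPHB2 at -2.31 (limma adjusted p = 0.0112), each lower in 2 of 2 growth forms. With limma's adjusted p, CD9 (-0.94, adjusted p = 0.0619), CD44 (-1.28, adjusted p = 0.0652), ALCAM (-0.86, adjusted p = 0.0764) and CD24 (1.16, adjusted p = 0.333) did not pass. SOX9, PROM1 and EPHB2 entered the fit only through their HCT116 levels, so a lower level in the libraries labelled LOVO was built into their presence, and the count of called genes is a description. Without the filter on low values 0 of the 8 were called, the smallest adjusted p of limma being 0.284, and the epithelial and fibroblast markers given above differed between the same libraries.

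The other genes used as stem cell markers gave a mixed picture in both lines. LGR5, ASCL2, OLFM4 and SMOC2, markers of crypt base stem cells, had an FPKM of at most 0.310 in any library. Of 15 other intestinal stem cell genes, 10 passed the filter. In HCT116, 7 were higher and 3 lower in spheroids, with a median of 0.25, from CDCA7 (-0.98) to MEX3A, an RNA-binding protein gene (1.21, from 2.96 to 8.19). In the libraries labelled LOVO, 5 were higher and 4 lower and TNFRSF19 was listed at 0 in both, with a median of 0.01, from ZNRF3, a negative regulator of WNT receptors (-1.86, from 13.1 to 2.88), to PROCR, the protein C receptor gene (1.69, from 1.35 to 6.56). Of 13 other surface or enzymatic markers of cancer stem cells, 10 passed, with 6 higher and 4 lower in HCT116 and 4 higher, 5 lower and DPP4 listed at 0 in the libraries labelled LOVO, and medians of 0.15 and -0.03. CXCR4, a chemokine receptor gene, was the highest of them in both lines, at 2.14 and 5.25 in HCT116 (0.99) and 14.2 and 48.5 in the libraries labelled LOVO (1.71). ITGA6 was the lowest in HCT116 (-0.45) and L1CAM in the libraries labelled LOVO (-1.78). Of the 6 pluripotency factors, POU5F1 and KLF4 passed the filter. POU5F1, whose reads can also fit its processed pseudogenes, was at 0.322 and 0.144 in HCT116 and 4.41 and 10.3 in the libraries labelled LOVO, and KLF4 was at 19.6 and 16.9 and at 12.8 and 5.32. SOX2 was at 0.616 or below in all 4 libraries.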

How the data were processed

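RNA-seq of 4 libraries was used, 1 per condition. The authors deposited FPKM for 58735 human genes. The aligner, the counter and the handling of multiply mapping reads are not given in the sources used here, and the submitters' processing notes name only the mouse builds GRCm38 and mm10, although all 58735 identifiers and coordinates are those of GENCODE 29 on GRCh38. The methods name edgeR for the authors' own tests, which were not used. FPKM times gene length gave whole reads for 100% of values (tolerance 0.01). The library sizes behind the FPKM were 0.907 to 1.09 times the reads on genes. Mitochondrial genes took 3.65% to 11.1% of reads, highest in HCT116 spheroids.

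Values were compared as log2(FPKM + 1), pseudocount 1, over the 14429 genes whose FPKM averaged 1 or more. The threshold of 2 follows the methods of the study, the base of the logarithm being taken as 2. Nothing was tested within a line. All libraries entered 1 fit of limma 3.58.1 (R 4.3.3) with line and growth form as terms, trended eBayes and Benjamini-Hochberg adjustment over all genes. On simulated libraries, with genes changed alike in the spheroids of both lines, the fit called these genes for growth form. It also called more unchanged genes than its adjusted p allows. Changes that differ between the lines were not simulated, and calls between the lines were not checked in this way. Levels were otherwise handled in Python 3.11.15 with scipy 1.17.1, the floor being 3 reads. The labels do not say whether libraries came from separate cultures. Named genes were the 8 members, the extremes of each list in each line, partners listed at 0, the 2 nearest protein-coding genes on each side of each member, and the 3 genes nearest in pattern to CD44, CD24 and PROM1. A few genes that this rule or the lists name are not reported here. The 8 genes and the lists were chosen with earlier results of these data known, and some partners in the text and the plots were picked after their values were seen. Alternatives were other pseudocounts, TPM, TMM-style scaling, median centring, a threshold of 1 and other limma settings. Sequences came from GENCODE 29 transcripts and RefSeq promoter windows.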

Additional observations from a re-analysis of the deposited data

Results flagged for a closer look

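Of the 8 genes, 3 differed in opposite directions between spheroids and adherent cells in the 2 lines. CD24 had a log2(FPKM + 1) difference of 1.53 in HCT116 and -1.88 in the libraries labelled LOVO. EPCAM had -0.11 and 0.37, and ALCAM had 0.18 and -0.35. Each line has 1 library per growth form, so the difference between the lines was not tested, and for EPCAM the values in the libraries labelled LOVO rest on 42 and 76 reads. The counting intervals of all 6 ratios lay on the side of their sign. The epithelial markers summed to 328 and 189 FPKM in adherent and spheroid cells labelled LOVO and to 1756 and 1290 in those of HCT116, and their part in these directions was not tested.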

How the results depend on the processing

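All 196 values of the members' log2 differences under other pseudocounts, scalings, centring or no pseudocount (and, for CD24, summed with its pseudogenes) kept their direction, and 50 of them moved by more than the counting error. The number of members past the threshold was 0 in HCT116 and 0 in the libraries labelled LOVO, and became 1 and 2 at a threshold of 1. With a pseudocount of 0.01 it became 1 in the libraries labelled LOVO (SOX9, whose difference there ran from 0.47 to 3.04 over the settings). TPM moved the median of all genes in the libraries labelled LOVO from -0.06 to 0.10 and the genes past 2 from 261 higher and 136 lower to 661 and 187, and it moved the median between the spheroid libraries from 0.04 to 0.26. Filtering each line on its own libraries, an alternative chosen after seeing the data, left 0 members past the threshold in each, of 8 and 5 members. Between the lines, limma called 4 members, but 0 without the filter on low values and 2 of the 6 tested at a mean FPKM of at least 5, where fewer members were tested. For growth form it called 0 under every setting. The fit for growth form has the cell line as its block, and called 0 members without it too. No paired analysis was possible by replicate number because each group has 1 library. For the same reason no replicate could be left out. Depth limits PROM1 and SOX9 in the libraries labelled LOVO, with 4 to 37 reads.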
